A study of Homo sapiens with 12 samples.

Results

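The genes described here are 5 secreted factors of angiogenesis (VEGFA, ANGPTL4, PDGFA, AGGF1 and the inhibitor THBS1) and the VEGF co-receptor NRP1. They are 6 of the 770 genes of a tumour progression panel that was read by NanoString nCounter, which counts fluorescent barcodes on probes bound to single transcripts. They were chosen by name, with the group means and p-values of these same tables known, so their levels and ratios are a description and support no test. The RNA came from HCT-116, an established epithelial cell line of human colorectal carcinoma, harvested with TRIzol. The 12 samples form 4 groups of 3: Control, Heteronemin, Tetrac and Heteronemin+Tetrac, each treated group having had its agent or agents for 24 h. Heteronemin is a sesterterpenoid of marine sponges and tetrac is tetraiodothyroacetic acid, an analogue of thyroid hormone. The sources used here give neither doses nor what the Control cells received, and do not say whether a group's samples were separate cultures. The study's title concerns growth and EGF receptor signalling, neither of which a transcript panel measures.

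The tables hold 1 mean of normalized counts per group and gene, so no spread between samples can be given for any value, and no order of levels could be set against such a spread. The depth is unknown. In RNA from whole cultures, fewer cells of a kind and less RNA per cell cannot be told apart. The lowest mean in any group was 33, taken here as the floor; 279 genes were at it in Control, against 70, 61 and 90 after heteronemin, tetrac and the combination. None of the 6 genes was at the floor in any group. Of 11 measured epithelial and colon markers, 10 were above the floor in Control, among them EPCAM (authors' mean 1814), KRT19 (1604) and CDH1 (509); the colon antigen CEACAM5 was at the floor. Of 9 measured endothelial markers 7 were at the floor in Control, and their summed means were 299.97 in Control, 441 with heteronemin, 372 with tetrac and 397 with both agents. For 9 markers of fibroblasts and mural cells the sums were 333, 621, 414 and 498, with 5 at the floor in Control. For the 2 measured blood cell markers, both at the floor in Control, they were 66.0, 111, 86.0 and 91.5. The sum for the 11 epithelial markers was 8431, 7885, 7758 and 8780 in the same order. Most of the endothelial, fibroblast and blood cell markers were at the floor in Control, as were 279 genes of the panel. Their sums are therefore not read as numbers of cells. The part of these shifts in the values below was not tested.

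Blood vessels grow when endothelial cells answer to secreted factors. VEGFA, the principal vessel growth factor, signals through receptor tyrosine kinases on endothelium, and the transmembrane protein NRP1 binds the same ligand and presents it to them; tumour cells can also carry NRP1, which binds class 3 semaphorins as well. PDGFA is a ligand of the PDGF alpha receptor on mesenchymal cells, AGGF1 is a secreted angiogenic factor with a G-patch domain, and ANGPTL4 is a secreted inhibitor of lipoprotein lipase that also acts on vessel permeability. THBS1, thrombospondin-1, is a matrix glycoprotein that restrains angiogenesis and can activate latent TGF-beta. Colorectal tumours are a tissue in which VEGFA is a drug target.

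Proximal promoter sequence was at hand for ANGPTL4, THBS1, AGGF1 and PDGFA. The windows of the first 3 are printed because ANGPTL4 was the gene that stood higher at p under 0.05 in every comparison, THBS1 was called higher in both groups with heteronemin, and AGGF1 was the gene whose deposited mean was below Control in every treated group. They are the 250 bases before the RefSeq start site, 5′ to 3′ on the plus strand of GRCh38.p14, at chr19:8363905-8364154 for ANGPTL4, chr15:39580829-39581078 for THBS1 and chr5:77030154-77030403 for AGGF1. Capitals mark the matches found on either strand to 5 motifs: the hypoxia response core ACGTG, AP-1 TGANTCA, the antioxidant response TGACNNNGC, C/EBP-ATF TGATGNAA and SP1 GGGCGG.
ANGPTL4: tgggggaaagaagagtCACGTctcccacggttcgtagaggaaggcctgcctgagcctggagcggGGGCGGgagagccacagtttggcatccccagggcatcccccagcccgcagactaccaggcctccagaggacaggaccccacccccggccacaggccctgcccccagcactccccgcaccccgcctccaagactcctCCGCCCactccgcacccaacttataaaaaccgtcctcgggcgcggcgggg
THBS1: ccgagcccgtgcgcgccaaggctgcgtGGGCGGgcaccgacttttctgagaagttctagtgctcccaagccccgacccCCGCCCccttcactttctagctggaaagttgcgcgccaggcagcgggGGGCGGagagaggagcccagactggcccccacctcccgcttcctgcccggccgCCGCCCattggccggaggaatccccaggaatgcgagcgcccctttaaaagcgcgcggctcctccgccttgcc
AGGF1: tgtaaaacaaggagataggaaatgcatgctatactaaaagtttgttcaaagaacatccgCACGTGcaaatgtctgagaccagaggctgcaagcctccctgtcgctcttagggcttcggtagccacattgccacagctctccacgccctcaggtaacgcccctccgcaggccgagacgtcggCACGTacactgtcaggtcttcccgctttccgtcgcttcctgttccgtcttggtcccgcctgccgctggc

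The ANGPTL4 window held 1 ACGTG core, read on the opposite strand 234 to 230 bases before the start, and 2 SP1 motifs. The THBS1 window held 4 SP1 motifs and no core. The AGGF1 window held no SP1 motif and 3 matches to the core; the first pair overlap, since CACGTG reads the same on both strands, and the other lies 69 to 65 bases before the start. Each of the 4 windows listed for PDGFA held 1 to 5 SP1 motifs and no core. No AP-1, antioxidant response or C/EBP-ATF match was in any of these windows. Among the same 250 bases of 35116 listed promoters, 18.5% held the core, 42.6% the SP1 motif, 6.57% the AP-1 motif, 10.9% the antioxidant response motif and 3.14% the C/EBP-ATF motif. The printed windows were 68.8%, 69.6% and 56.4% G and C, against a median of 58.0% over all promoters, and the SP1 motif is itself made of G and C. A match is a description of letters, and no binding was measured.

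VEGFA, probed through the transcript NM_001025366.1, had an authors' mean of 461 in Control, 660 with heteronemin, 466 with tetrac and 771 with both agents. Both groups with heteronemin were high, and the tetrac mean was within a few counts of Control. The ratio to Control was 1.43-fold after heteronemin (log2 ratio 0.52, p = 0.06 in the authors' deposited table), 1.01-fold after tetrac (log2 ratio 0.02, p = 0.89) and 1.67-fold after the combination (log2 ratio 0.74, p = 0.01). Only the last passed the authors' unadjusted p under 0.05, which is the meaning of called throughout.

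VEGFA lay above nearly all genes of like level in each comparison. Ratios differed by level, the median log2 ratio with heteronemin being 0.11 over all genes and -0.19 over the 356 genes whose mean level was at least 100, so each gene was set beside the 51 genes nearest to it in Control mean among those above the floor, a choice made after seeing the data. For VEGFA these neighbours had Control means from 378 to 554 and a median log2 ratio of -0.24 after heteronemin and -0.16 after the combination. In both comparisons 0 of the 51 lay above VEGFA, which exceeded the neighbours' median by 0.76 and 0.91. After tetrac their median was -0.11, and 2 of the 51 lay above VEGFA.

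**Figure D1:**
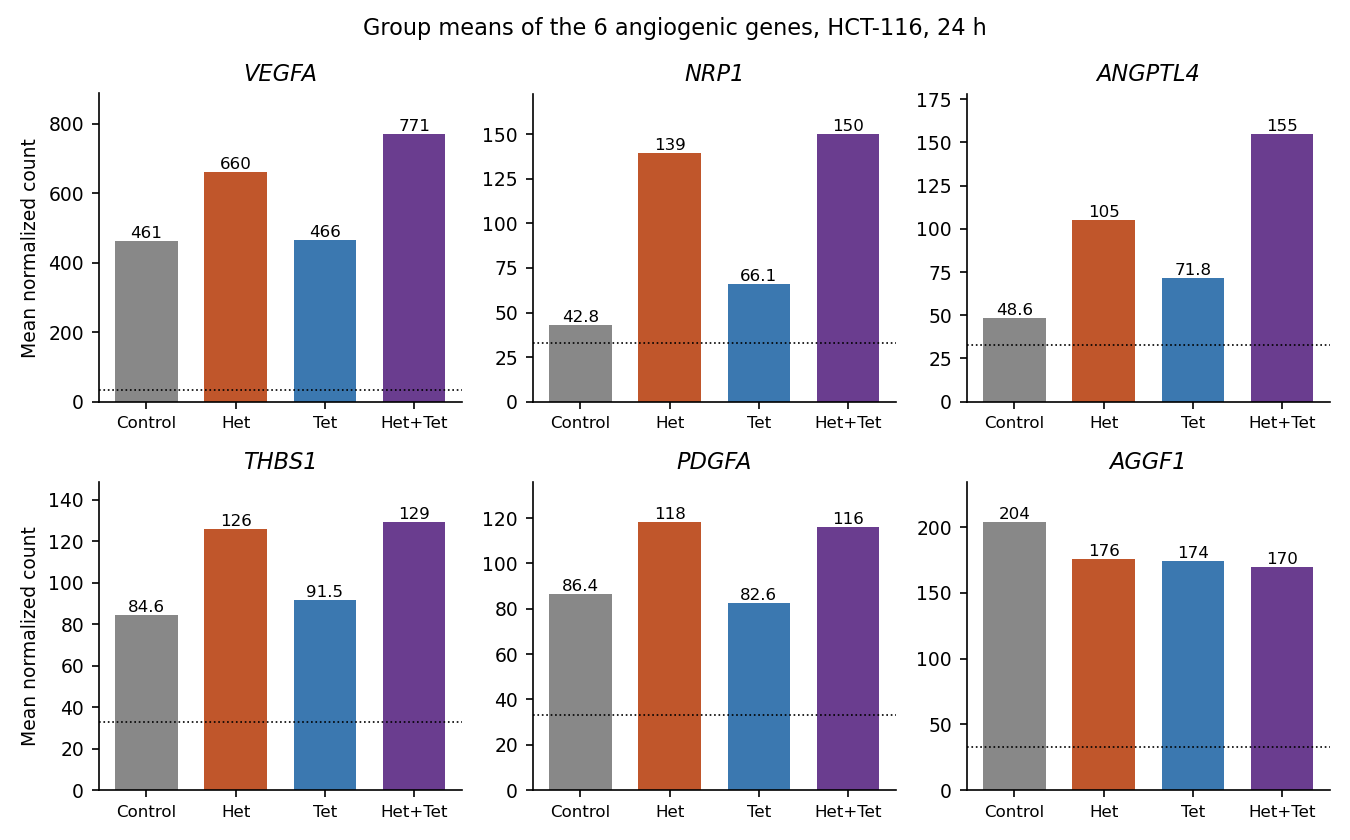
Group means of normalized counts for the 6 genes (bars, 1 per group, vertical axes from 0 and scaled per gene; Het is Heteronemin and Tet is Tetrac; the dotted line is the floor of 33). VEGFA, NRP1, ANGPTL4, THBS1 and PDGFA are higher in both groups with heteronemin, while the deposited mean of AGGF1 is highest in Control; the tables give no spread, so there are no error bars.

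NRP1, the receptor of the set, had the largest ratio. Its authors' mean was 42.8 in Control, not far above the floor, 139 with heteronemin, 66.1 with tetrac and 150 with both agents. It was 3.26-fold higher after heteronemin (log2 ratio 1.70) and 3.52-fold higher after the combination (log2 ratio 1.81), each with a p of 0, which stands for any value below 0.005, in the authors' deposited table. After tetrac the ratio was 1.55-fold (log2 ratio 0.63) with p = 0.27 in the authors' deposited table. By size of log2 ratio NRP1 ranked 7, 14 and 5 from the top of the 770 genes after heteronemin, tetrac and the combination.

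Most genes as dim as NRP1 in Control were also higher after treatment. Its 51 neighbours had Control means from 35.6 to 51.1; after heteronemin 45 of them were above Control, with a median log2 ratio of 0.84, after tetrac 42 with a median of 0.30, and after the combination 45 with a median of 0.44. NRP1 exceeded these medians by 0.87, 0.33 and 1.37, and 1 of the 51 lay above it in each comparison. How much of the NRP1 ratio is shared with such dim genes was not tested further.

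ANGPTL4 was the gene called in all 3 comparisons. The panel lists it under NR_104213.1, a transcript recorded as non-coding, and which of its isoforms the probe counts is not stated by the sources used here. Its authors' mean was 48.6 in Control, 105 with heteronemin, 71.8 with tetrac and 155 with both agents, so each treated mean was above Control and the combination was highest. The ratios were 2.16-fold after heteronemin (log2 ratio 1.11), 1.48-fold after tetrac (log2 ratio 0.56) and 3.19-fold after the combination (log2 ratio 1.67), with p of 0, 0.03 and 0 in the authors' deposited table. Adjusted over all tested genes by the Benjamini-Hochberg method, the p after tetrac was 0.65. Of 714 tested panel genes, 9 were called after tetrac.

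Beside genes of like Control level, ANGPTL4 was less extreme after heteronemin than after the combination. Its neighbours' median log2 ratio was 0.82 after heteronemin, where 8 of 51 lay above ANGPTL4, 0.21 after tetrac, where 4 did, and 0.39 after the combination, where 1 did. The excess over the median was 0.29, 0.36 and 1.29. ANGPTL4 ranked 67, 46 and 6 from the top of the panel in the same order.

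THBS1, the inhibitor among the 6, had an authors' mean of 84.6 in Control, 126 with heteronemin, 91.5 with tetrac and 129 with both agents. It was 1.49-fold higher after heteronemin (log2 ratio 0.57, p = 0.04 in the authors' deposited table) and 1.53-fold higher after the combination (log2 ratio 0.61, p = 0.03), while tetrac gave 1.08-fold (log2 ratio 0.11, p = 0.58). The growth factor PDGFA had an authors' mean of 86.4 in Control, 118 with heteronemin, 82.6 with tetrac and 116 with both agents. Its ratio was 1.37-fold after heteronemin (log2 ratio 0.45, p = 0.02 in the authors' deposited table) and 1.34-fold after the combination (log2 ratio 0.43, p = 0.04). After tetrac it was -0.06 on the log2 scale (p = 0.64 in the authors' deposited table), a sign that turned to 0.06 when the groups were rescaled to equal panel sums.

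Neither gene stood far from its neighbours after heteronemin. Of 51 genes of like Control level, 18 lay above THBS1 and 21 above PDGFA, at excesses over the median log2 ratio of 0.15 and 0.04. After the combination 8 lay above THBS1 and 13 above PDGFA, at excesses of 0.46 and 0.31.

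AGGF1 was the gene of the 6 whose mean was lower in all treated groups: 204 in Control, 176 with heteronemin, 174 with tetrac and 170 with both agents. It was 1.17-fold lower after tetrac (log2 ratio -0.23, p = 0.03 in the authors' deposited table) and 1.20-fold lower after the combination (log2 ratio -0.26, p = 0.03). The Benjamini-Hochberg adjusted p of AGGF1 after tetrac was 0.65. The log2 ratio of -0.21 after heteronemin (p = 0.09 in the authors' deposited table) was not called and became 0.04 with equal panel sums. The 3 treated means lay within 6 counts of each other. After tetrac 50 of its 51 neighbours had a higher ratio than AGGF1, against 36 after heteronemin and 35 after the combination.

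Choosing the 51 neighbours by mean level over the 4 groups, which includes the treated values, gave the same signs but in part other sizes of the excess over their median log2 ratio. The excess for heteronemin, tetrac and the combination in turn was 0.84, 0.15 and 0.95 for VEGFA and 1.27, 0.52 and 1.70 for NRP1. For ANGPTL4 it was 0.64, 0.43 and 1.45, more than the 0.29 above where heteronemin is concerned. THBS1 stood at 0.31, 0.04 and 0.59, also above its 0.15 for heteronemin. PDGFA had 0.01, -0.18 and 0.27, and AGGF1 had -0.18, -0.20 and -0.19.

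**Figure D2:**
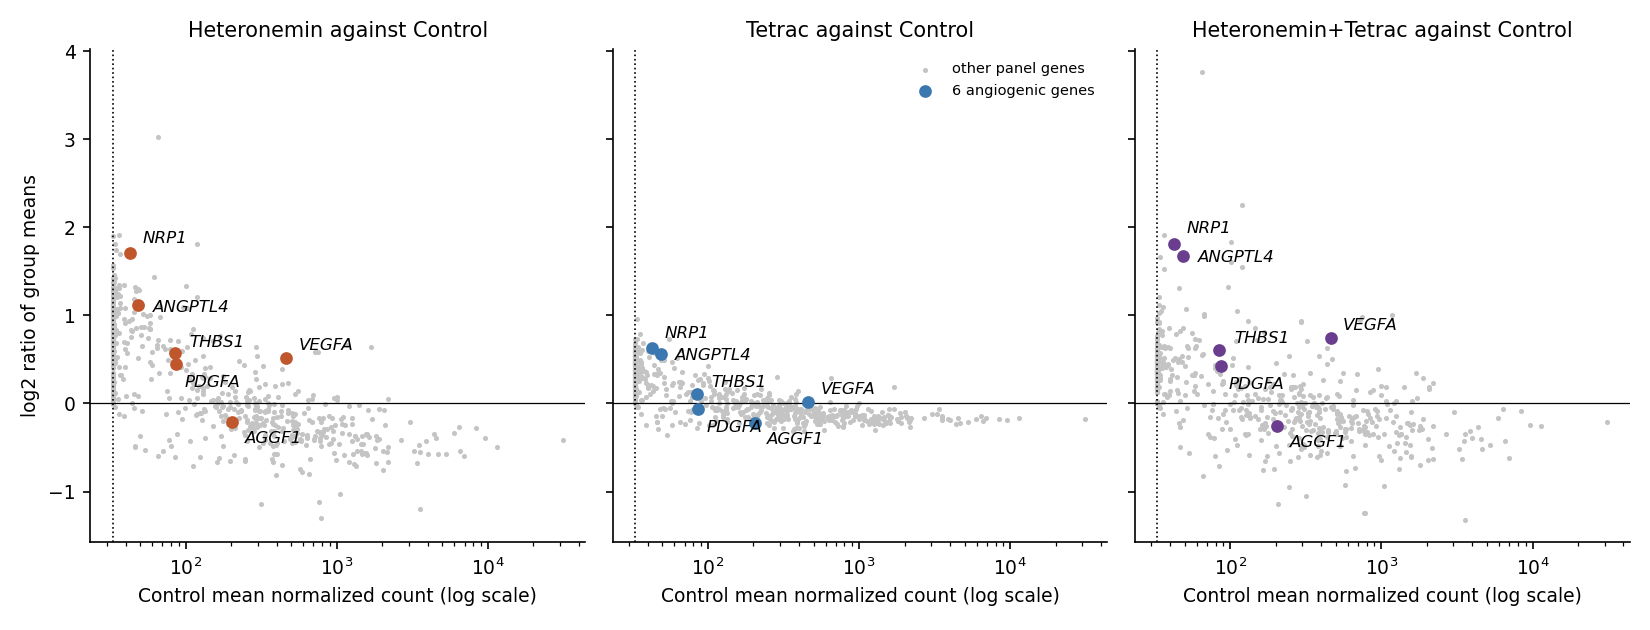
Log2 ratio of each treated group mean over Control (vertical axis) against the Control mean on a log scale (horizontal axis), for the 6 genes (coloured, named) and the other panel genes (grey); the dotted line is the floor of 33. NRP1 and ANGPTL4 sit among dim genes, many of which are above 0, while VEGFA at 461 in Control lies above the genes around it in the heteronemin and combination panels.

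Counted by call, 4 of the 6 genes were higher and 0 lower after heteronemin, 1 higher and 1 lower after tetrac, and 5 higher and 1 lower after the combination. Of all tested panel genes, 11.2% were called higher and 15.9% lower after heteronemin, 0.28% and 0.98% after tetrac, and 8.16% and 14.1% after the combination. The 6 genes were chosen on these contrasts, so nothing is read from their shares. When the p-values as printed were adjusted over all tested genes by the Benjamini-Hochberg method, NRP1 and ANGPTL4 were the 2 that passed, with heteronemin and with the combination. Since a printed p is rounded, the adjustment was repeated on the upper end of each rounding interval. Both genes then had an adjusted p of 0.0859 with heteronemin and 0.0715 with the combination, and 0 of the 191 and 153 panel genes called at the unadjusted p passed. Both outcomes follow from the rounding: a printed 0 stays 0 when adjusted, and every printed 0 becomes 0.005 at the upper end. Neither says which genes would pass with unrounded values.

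The combination was then set beside each agent. The tables hold no test between treated groups, so these are ratios of means only. Over heteronemin alone, the combination mean was 1.47-fold for ANGPTL4 (log2 ratio 0.56), 1.17-fold for VEGFA, 1.08-fold for NRP1 and 1.03-fold for THBS1, and the log2 ratio was -0.03 for PDGFA and -0.05 for AGGF1. Over tetrac alone it was 2.27-fold for NRP1, 2.16-fold for ANGPTL4, 1.65-fold for VEGFA, 1.41-fold for THBS1 and 1.41-fold for PDGFA, and -0.03 on the log2 scale for AGGF1. Heteronemin stood over tetrac by 2.11-fold for NRP1, by 1.38-fold to 1.47-fold for VEGFA, ANGPTL4, THBS1 and PDGFA, and by 1.01-fold for AGGF1.

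The log2 ratio of the combination was also compared with the sum of the 2 single-agent log2 ratios. For ANGPTL4 these were 1.67 and 1.68: tetrac went with a log2 ratio of 0.56 over Control and the combination with one of 0.56 over heteronemin. NRP1 fell short of the sum by the most, at 1.81 against 2.33. VEGFA was above it, at 0.74 against 0.53, and AGGF1 at -0.26 against -0.44. THBS1 and PDGFA differed from their sums by -0.08 and 0.04. Over the 482 genes above the floor in all groups the median difference was 0.09, and it was 0.18 where the mean level was at least 100, as it was for VEGFA, AGGF1, THBS1 and PDGFA. These differences hold for the means as deposited. With equal panel sums they became 0 for VEGFA, -0.73 for NRP1, -0.21 for ANGPTL4, -0.28 for THBS1, -0.17 for PDGFA and -0.03 for AGGF1. Corrected for the ratios of genes of like mean level over the 4 groups, they became -0.03, -0.08, 0.39, 0.24, 0.43 and 0.19 in the same order, so that the shortfall of NRP1 and the equality for ANGPTL4 were both lost. A pseudocount of 20 left NRP1 at -0.36. Control enters both sides of each difference.

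**Figure D3:**
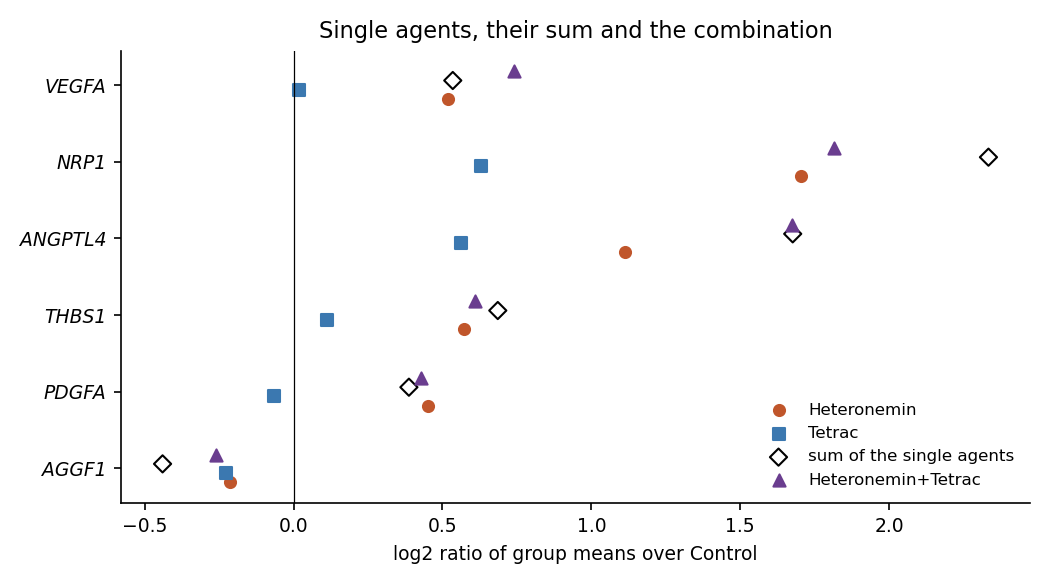
Log2 ratios of group means, as deposited, over Control for the 6 genes: heteronemin (circles), tetrac (squares), their sum (open diamonds) and the measured combination (triangles). For ANGPTL4 the triangle lies on the diamond, for NRP1 it lies to the left (1.81 against 2.33) and for VEGFA to the right (0.74 against 0.53).

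The genes most like each of the 6 were found by the distance between their 3 log2 ratios over Control, among the 482 genes above the floor in all 4 groups. Because the 3 ratios share the Control mean, the likeness is a description. For VEGFA they were BTG1 (distance 0.13) and ADAM17 (0.17), and THBS1 came close at 0.17. For THBS1 they were SRPX2 (0.14) and SH2D3A (0.16), and for PDGFA TYMP (0.09) and PLAUR (0.13). AGGF1 lay nearest to MYO5C (0.07) and EP300 (0.07). The patterns of NRP1 and ANGPTL4 had no such close match: NRP1 was 0.33 from HKDC1 and 0.37 from MYCL, and ANGPTL4 was 0.38 from POPDC3 and 0.48 from LAMA3. NRP1 and ANGPTL4 were 0.61 apart.

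A wider set of angiogenesis genes was counted in the same way. A list of 106 symbols in 10 roles, older synonyms included, written from general knowledge with earlier results of these data known, had 60 measured genes, 54 of them besides the 6 above. Of these 54, 48 were tested after heteronemin, with 3 called higher and 4 lower; 49 were tested after tetrac, with 0 called; and 48 were tested after the combination, with 5 higher and 5 lower. Of all tested panel genes, 11.2% were called higher and 15.9% lower after heteronemin, and 0.28% and 0.98% after tetrac. After the combination the shares were 8.16% and 14.1%, so nothing is read from the counts of the list. The median log2 ratio of the 54 genes was 0.29, 0.09 and 0.17, beside 0.11, 0.02 and 0.09 over all panel genes. Where the mean level was at least 100, the 22 genes left had medians of -0.05, -0.06 and -0.12, beside -0.19, -0.11 and -0.15 over the 356 panel genes so filtered.

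Among the other VEGF ligands, VEGFB had log2 ratios of -0.19, -0.09 and -0.35 after heteronemin, tetrac and the combination. FIGF, the panel's name for VEGFD, had 0.53, 0.13 and 0.41, from a Control mean of 35.0, close to the floor. VEGFC was at the floor in Control, and none of these ligands was called. The receptors VEGFA signals through were near the floor: FLT1 and KDR were at 33 in Control and at most 61.1 and 53.9 in a treated group. NRP2, the paralogue of NRP1, was at the floor in all 4 groups. The semaphorin receptor PLXND1 (130 in Control) and the semaphorin SEMA3E (34.5 in Control) were not called in any comparison. Of the 7 genes in the VEGF receptor and neuropilin role, 4 were at the floor in Control. After heteronemin and after the combination 5 of them were tested, and NRP1 was the 1 called in both comparisons. Since NRP1 was chosen on these contrasts, nothing is read from that count, and the panel shares given above are the background.

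Of the PDGF genes, PDGFC went the other way from PDGFA under the combination, 167 in Control and 137 with both agents (log2 ratio -0.29, p = 0.04 in the authors' deposited table), and the receptor PDGFRB was at the floor in Control and not called. Of the 5 angiopoietin relatives besides ANGPTL4, ANGPTL2 was called higher under the combination (1.56-fold, from 34.8) and ANGPT1, ANGPT2, TEK and TIE1 were at the floor in Control. SDC4, a heparan sulphate proteoglycan and co-receptor of matrix and growth factors, was called higher in the same comparisons as THBS1: its authors' mean was 474 in Control, 557 with heteronemin, 455 with tetrac and 675 with both agents (p of 0.01, 0.60 and 0.04 in the authors' deposited table). The thrombospondin receptor CD36 and THBS2 were at the floor in Control.

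Among FGF genes, the growth factor FGF2 rose 1.64-fold under the combination, from 109 to 179 (p = 0.01 in the authors' deposited table), while FGF9 fell by 0.65 and the receptor FGFR3 fell by 0.48 on the log2 scale. None of the 6 FGF genes tested after heteronemin alone was called. Of all tested panel genes, 11.2% were called higher and 15.9% lower there, so nothing is read from this count. TYMP, thymidine phosphorylase, was called higher after heteronemin (1.46-fold) and the combination (1.33-fold), and TNFSF12, the cytokine TWEAK, was 1.28-fold lower after heteronemin. On this list CXCL8 had the largest rise and the Notch ligand JAG1 the largest fall with heteronemin, at log2 ratios of 3.03 and -1.30.

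Of 9 measured angiogenesis inhibitors on the list, 6 were at the floor in Control. The endostatin precursor COL18A1 fell by 0.61 on the log2 scale under the combination and the metalloproteinase inhibitor TIMP1 fell by 0.54 after heteronemin. Of the 4 hypoxia regulators, which act upstream of VEGFA and ANGPTL4 in textbook accounts, HIF1A fell by 0.36 after heteronemin and was at -0.10 under the combination without a call. Bright genes as a whole stood lower after heteronemin. The median log2 ratio was -0.19 over genes of mean level at least 100. It was -0.32 over the 51 genes nearest to VEGFA in mean level, from 470 to 741. That range lies below the mean levels of HIF1A (1453) and TIMP1 (1125). How far HIF1A and TIMP1 differ from genes of like level was not tested. EPAS1, VHL and EGLN3 were not called in any comparison, with EGLN3 at 0.71 after heteronemin (p = 0.05 in the authors' deposited table).

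**Figure D4:**
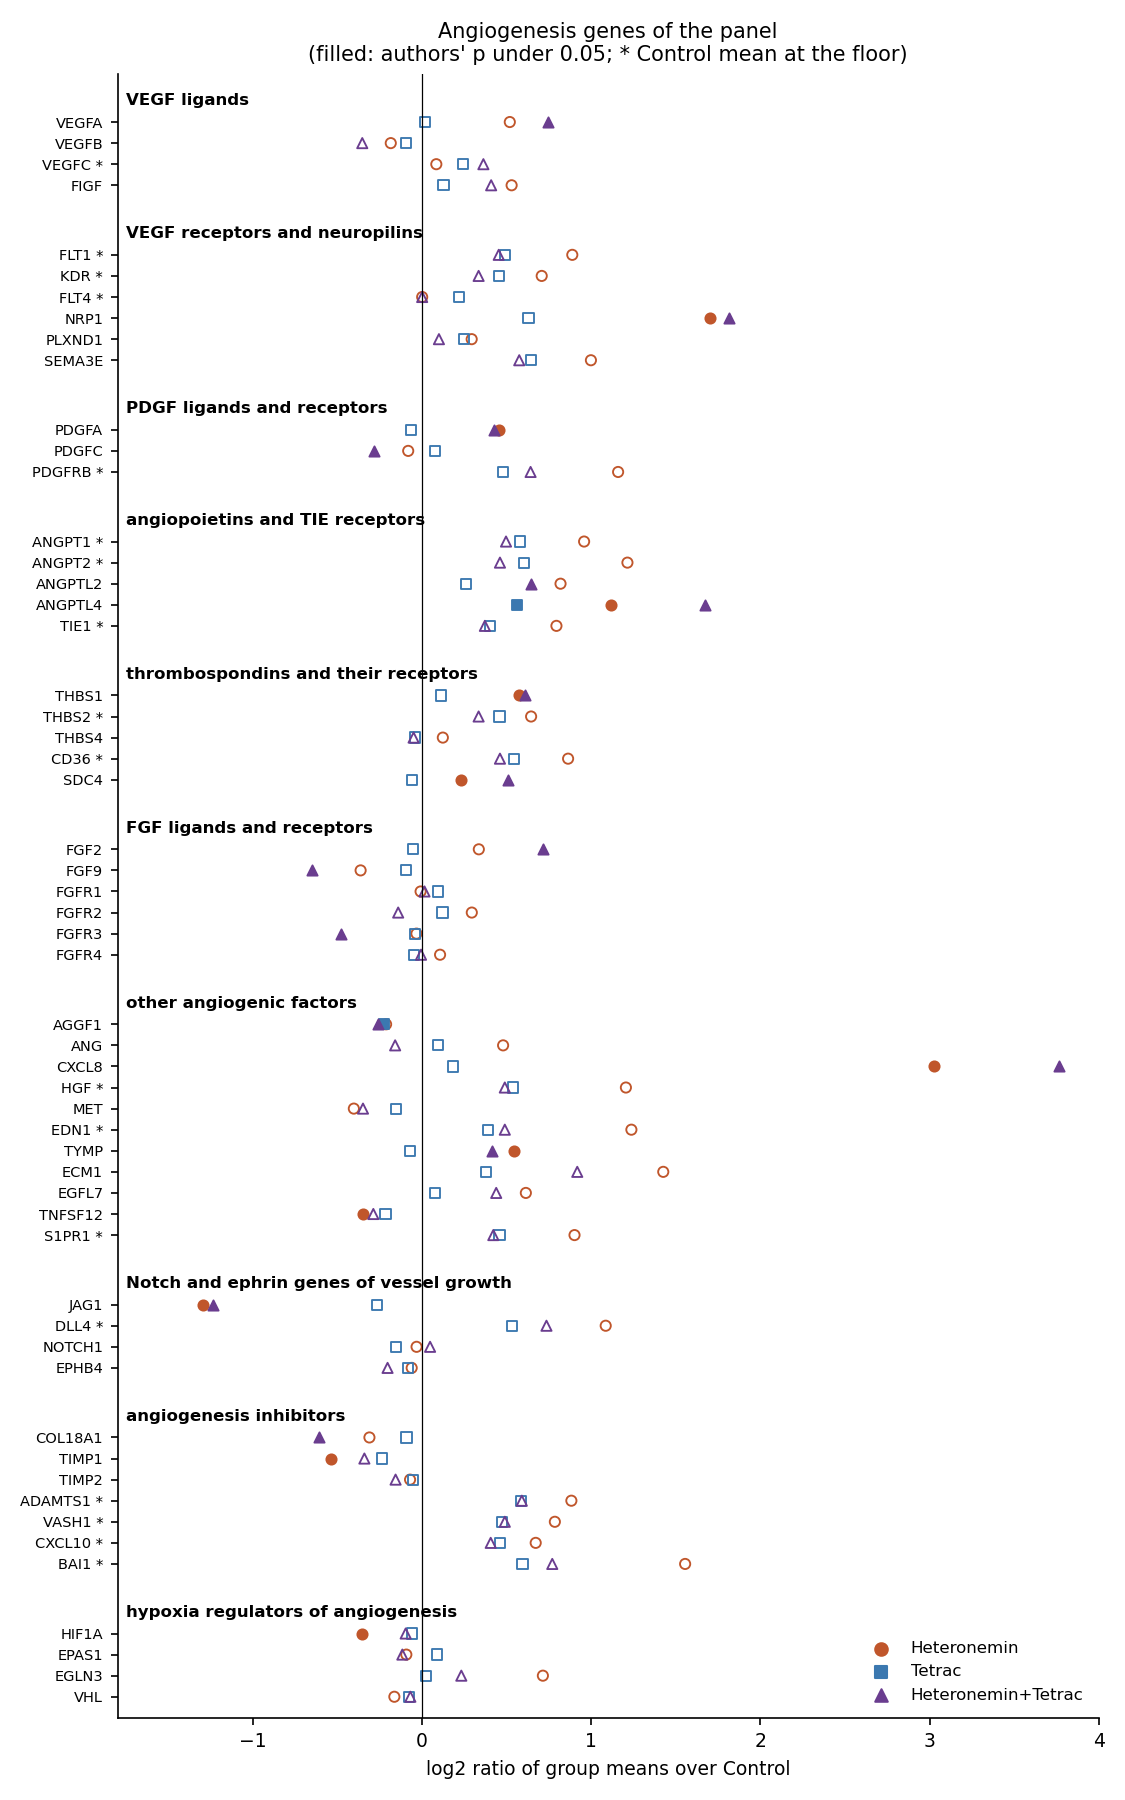
Log2 ratios of group means over Control for the measured angiogenesis genes, grouped by role, without the 5 genes at the floor in all groups; circles are heteronemin, squares tetrac and triangles the combination. Filled symbols had an authors' p under 0.05 and an asterisk marks a Control mean at the floor. The filled symbols at a log2 ratio above 1 belong to CXCL8, NRP1 and ANGPTL4, and those below -1 to JAG1.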

How the data were processed

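The authors deposited 3 tables, 1 per treated group, of 770 genes each (740 endogenous, 30 housekeeping). Per the labels and the series' design text, raw counts from the nCounter PanCancer Progression panel were normalized with nSolver 4.0, using a positive control factor per sample and a biological normalization. The authors deposited a normalized signal, which is the mean count per group. Their score, also deposited, is the ratio of both means with a sign and matched the quotient within 0.00511. The authors deposited a p-value to 2 decimals. The sources used here give neither the test nor the kind of mean nor the background handling. The Control column was identical in the 3 tables.

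Computed here were log2 ratios of group means, counts of genes at the authors' unadjusted p under 0.05, Benjamini-Hochberg adjustment over each table, comparisons with the 51 genes nearest in level, and motif matches in the RefSeq promoter table of GRCh38.p14. The named genes are the 6 members, list genes called in any comparison and the 2 nearest patterns per member; list genes that describe a role were added after their values were seen. Members and lists were chosen with earlier results of these data known. All 6 symbols matched the reference by symbol and accession. Promoter windows matched 4 of the 6; VEGFA and NRP1 were not among them. No per-sample values were analysed here, so precision cannot be given, and the authors' p-values rest on a spread between samples that may be technical. Counting and adjustment were tested on simulated data that had no floor, which says nothing on the authors' p-values of genes at the floor. Alternatives are in the closing section. Python 3.11.15, numpy 2.4.6, scipy 1.17.1, pandas 2.3.3 and matplotlib 3.10.9 were used.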

Additional observations from a re-analysis of the deposited data

How the results depend on the processing

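The 18 log2 ratios of the 6 genes kept their sign under rescaling on housekeeping genes, a pseudocount of 20 and both corrections for level; that for Control level was chosen after seeing the data. Equal panel sums, which add 0.25, 0.12 and 0.17 to the log2 ratios after heteronemin, tetrac and the combination, turned PDGFA after tetrac and AGGF1 after heteronemin, neither of them called; centring on the median of genes above the floor turned PDGFA after tetrac to 0. No called ratio changed sign. The difference of the combination from the sum of single agents changed sign under at least 1 alternative for VEGFA, ANGPTL4, THBS1, PDGFA and AGGF1; for NRP1 it kept its sign but ranged from -0.73 with equal panel sums to -0.08 corrected for mean level.

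Counts depend on the threshold. For heteronemin, tetrac and the combination in turn, 4, 2 and 6 of the 6 genes were called at p under 0.05. At p under 0.01 these were 2, 0 and 2; with 1.5-fold also required, 2 and 0, and 4 for the combination; with Benjamini-Hochberg adjustment on p as printed, 2, 0 and 2, and on the upper end of each rounding interval, 0, 0 and 0; among genes whose mean level was at least 100, 2, 1 and 4. For the 60 list genes, 11, 2 and 16 became 4, 0 and 5 at p under 0.01, 4, 0 and 10 with 1.5-fold, 4, 0 and 5 adjusted, 0 in each at that upper end, and 1 for tetrac at the higher level. For all genes, 191, 9 and 153 became 41, 0 and 48 at p under 0.01, 95, 0 and 69 with 1.5-fold, 41, 0 and 48 adjusted, and 0 in each at that upper end. For heteronemin and the combination, both adjusted counts follow from the rounding of p and do not say what unrounded values would give. No paired analysis was possible because the tables hold group means, not values per sample; leaving out replicates was not run for the same reason. The raw depth is unknown, and NRP1 and ANGPTL4 were near the floor in Control.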

Other observations

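The printed p-values of genes at the floor in Control were mostly 0.42 after tetrac and the combination, but not after heteronemin. This bears on the angiogenic receptors at the floor in Control. Among genes whose Control mean was at the floor and whose treated mean was not, 212 of 223 had p = 0.42 after tetrac, 148 of 195 after the combination and 10 of 213 after heteronemin in the authors' deposited table. When all samples of a group are at 1 value and exactly 1 of 3 samples of the other is above it, a comparison of means with unequal variances gives p = 0.423 whatever the size of the excess, and one with a pooled variance gives 0.374. With 2 of 3 samples equally above it, the first gives 0.184, and 151 of the 213 genes after heteronemin had a p from 0.18 to 0.41. The authors' test is not given in the sources used here, and values per sample were not analysed here. FLT1, CD36, ANGPT1 and VASH1, at the floor in Control, had p = 0.42 after tetrac and after the combination in the authors' deposited table.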
